A study of Mus musculus with 18 samples.

Results

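The immunity-related GTPase genes Irgm1, Iigp1 and Gm4951 were followed across 9 immune cell populations of interferon-treated mice. The members were fixed by symbol, and a probe set was used where GEO's platform annotation gives it that symbol and no other. Each gene had 1 such probe set, so 3 of 24922 probe sets and 3 of the 19752 genes tested are described, and other measured genes of the family are set beside them. Transcript levels came from 18 Affymetrix Mouse Gene 1.0 ST arrays, a 1-colour array whose probe sets cover whole transcripts, with 2 arrays per population. All donors were male C57BL/6 (B6) mice, 6 weeks old, that had received 10000 U of interferon gamma (IFNg) under the skin 2 h before. Every array shares that treatment and untreated mice were not analysed here, so the comparisons are between populations of treated animals and do not measure induction. From the peritoneal cavity came macrophages (MF) sorted for ICAM2 and for the macrophage antigen encoded by Adgre1. From spleen came Ly6G+ granulocytes (GN), CD11c+ MHCII+ Flt3+ dendritic cells (DC), NK1.1+ TCRB+ T cells (NKT), NK1.1+ TCRB- NK cells (NK), TCRgd+ TCRB- gamma delta T cells (Tgd), CD4+ TCRB+ CD25+ T cells (Treg), CD8+ TCRB+ T cells (T8) and CD4+ TCRB+ T cells (T4). MF is the only population from the peritoneum, so that tissue and cell type cannot be told apart for it, and the T4 gate as labelled does not exclude CD25+ cells. Whether the arrays of 1 population stem from different animals is not stated, so a p-value here reflects array-to-array spread, which may be technical.

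Immunity-related GTPases are interferon-inducible proteins that let mouse cells attack microbes living inside vacuoles, such as Toxoplasma and Chlamydia. Effector members, to which Iigp1 (Irga6) belongs, gather on the vacuole membrane and break it up. Regulatory members, of which Irgm1 is one, sit on the membranes of the cell's own organelles and keep the effectors inactive there. Irgm1 is needed in mice for resistance to several intracellular bacteria and parasites. Gm4951 is listed in RefSeq with the synonym Ifgga2, beside Ifgga1 for Iigp1, and no function is assigned to it here.

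Interferons act on such genes through short promoter elements. The GAS element (letters TTCNNNGAA, the same on both strands) is one of them, and the ISRE (GAAA, any 2 bases, GAAA, searched on both strands), which interferon regulatory factors bind, is another. The promoter of Irgm1 is shown because the sequence table used holds a window for this member. The window runs from 250 bases before to 50 bases after the RefSeq start (GRCm38.p6, chr11:48871371-48871670, minus strand), and capitals mark the bases inside ISRE matches.
Irgm1: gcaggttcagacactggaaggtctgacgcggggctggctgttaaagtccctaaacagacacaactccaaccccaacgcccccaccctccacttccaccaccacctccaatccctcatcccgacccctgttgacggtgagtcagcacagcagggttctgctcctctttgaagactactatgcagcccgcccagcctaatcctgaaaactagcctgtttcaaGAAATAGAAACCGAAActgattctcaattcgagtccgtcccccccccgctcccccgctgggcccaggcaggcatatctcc
The capitals hold 2 overlapping matches, GAAATAGAAA and GAAACCGAAA, which begin 30 and 24 bases before the start. An ISRE match was present in 3.44% of the 32851 promoter windows in the RefSeq table used, and 74 windows held 2 or more. Windows of immunity-related GTPase genes held an ISRE match in 8 of 12 cases. No GAS match lay in the Irgm1 window, against 8.30% of all windows and 6 of the 12 windows of the family. A match describes the letters only.

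The sorted cells carried the markers of their gates. All 12 granulocyte markers were brightest in GN, all 10 macrophage markers in MF, all 9 NK markers in NK, 9 of 10 dendritic cell markers in DC and the 3 measured gamma delta markers in Tgd. Cd4 had its highest population mean in T4, Cd8a in T8, and Foxp3 and Il2ra in Treg. Of the 11 T cell markers, Cd3d and Zbtb16 were highest in NKT. The 9 NK markers summed to 10936 and 10396 on the NKT arrays and 44070 and 42219 on the NK arrays, against 639 to 5688 on all others. Markers of other cells were also seen on the DC arrays, with more granulocyte marker signal on replicate 2 than on replicate 1. The 12 granulocyte markers summed to 30710 intensity units on DC replicate 2 and 8691 on DC replicate 1, against 91105 and 103151 on the GN arrays and 744 to 2634 on arrays of the other populations. The 8 red pulp macrophage markers summed to 8627 on DC replicate 2 and 4246 on DC replicate 1. On the MF arrays they summed to 26672 and 27684, on the GN arrays to 5788 and 6136, and on lymphoid arrays to 693 to 1518. The 5 monocyte markers summed to 8996 on DC replicate 2 and 6576 on DC replicate 1. On the MF arrays they summed to 13734 and 15106, on the GN arrays to 2328 and 2072, and on lymphoid arrays to 1661 to 4476. Of these 5 markers 2 were highest in MF, 2 in NK and 1 in DC. The 7 B cell markers summed to 3555 and 3469 on the DC arrays and 2648 and 2844 on the Tgd arrays, against 654 to 1794 on all others. Their part in the DC and Tgd values was not tested. The DC values against the other 8 populations, and the pairs with DC that are named, are also given without replicate 2. Array medians lay between 138.5 and 151.0 intensity units, and the median log2 level of all genes was 7.19.

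Irgm1 lay above the median level of all genes in every population, but was less bright in the NK1.1+ cells. Its log2 intensity was 12.25 and 12.07 in MF, 12.53 and 12.53 in GN, and 12.10 and 12.18 in DC. In the lymphoid cells it was 10.59 and 10.81 in NKT, 9.67 and 9.46 in NK, 11.65 and 11.69 in Tgd, 11.99 and 11.83 in Treg, 11.63 and 11.65 in T8, and 12.05 and 11.92 in T4. NK lay lowest, at or below 9.67, and NKT next, at or below 10.81, with every other array at 11.63 or above. Over all 9 populations the means spanned 2.97 on the log2 scale, a 7.83-fold range from 9.56 ± 0.15 in NK to 12.53 ± 0.00 in GN (SD, n = 2 arrays each). In limma's moderated F test the adjusted p of this range was 6.25e-13.

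Iigp1 had another profile. Its log2 intensity was 11.96 and 11.68 in MF, 8.56 and 8.62 in GN, and 10.53 and 10.85 in DC. In the lymphoid cells it was 8.25 and 8.50 in NKT, 6.70 and 6.82 in NK, 10.18 and 10.16 in Tgd, 11.17 and 10.83 in Treg, 10.35 and 9.66 in T8, and 11.11 and 10.86 in T4. MF lay above every other population, NK below every other one, and GN beside NKT near the bottom. The T8 arrays differed by 0.69, the largest gap between arrays of a population for any of the 3 genes. The means spanned 5.06, a 33.3-fold range from 6.76 ± 0.08 in NK to 11.82 ± 0.19 in MF (adjusted p = 1.5e-12, limma F test).

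Gm4951 was brightest in MF by a wide margin. Its log2 intensity was 11.59 and 11.38 in MF, 7.61 and 7.34 in GN, and 9.57 and 9.60 in DC. In the lymphoid cells it was 6.90 and 7.08 in NKT, 6.58 and 6.06 in NK, 8.10 and 8.29 in Tgd, 9.09 and 9.09 in Treg, 8.05 and 7.64 in T8, and 8.89 and 8.35 in T4. No population's arrays overlapped with another's, but some gaps were small, such as 8.05 in T8 against 8.10 in Tgd. With 2 arrays per population this is easily reached, and its share over all genes was not counted. The NK and NKT arrays lay below the median level of all genes, as did the NK arrays for Iigp1. This kind of array compresses differences at such levels. The means spanned 5.16, a 35.8-fold range from 6.32 ± 0.37 in NK to 11.48 ± 0.15 in MF (adjusted p = 3.28e-12, limma F test). A gene was counted as passing when its adjusted p lay below 0.05 and its range or difference reached 2-fold. For a difference between 2 single populations the adjusted p alone decided. All 3 genes passed over the 9 populations, as did 39.0% of all genes. The range was larger than that of 92.3% of genes for Irgm1, 98.1% for Iigp1 and 98.3% for Gm4951, against a median range of 0.71 over all genes. In sorted bulk cells, fewer cells expressing a gene and less RNA per cell cannot be told apart.

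**Figure D1:**
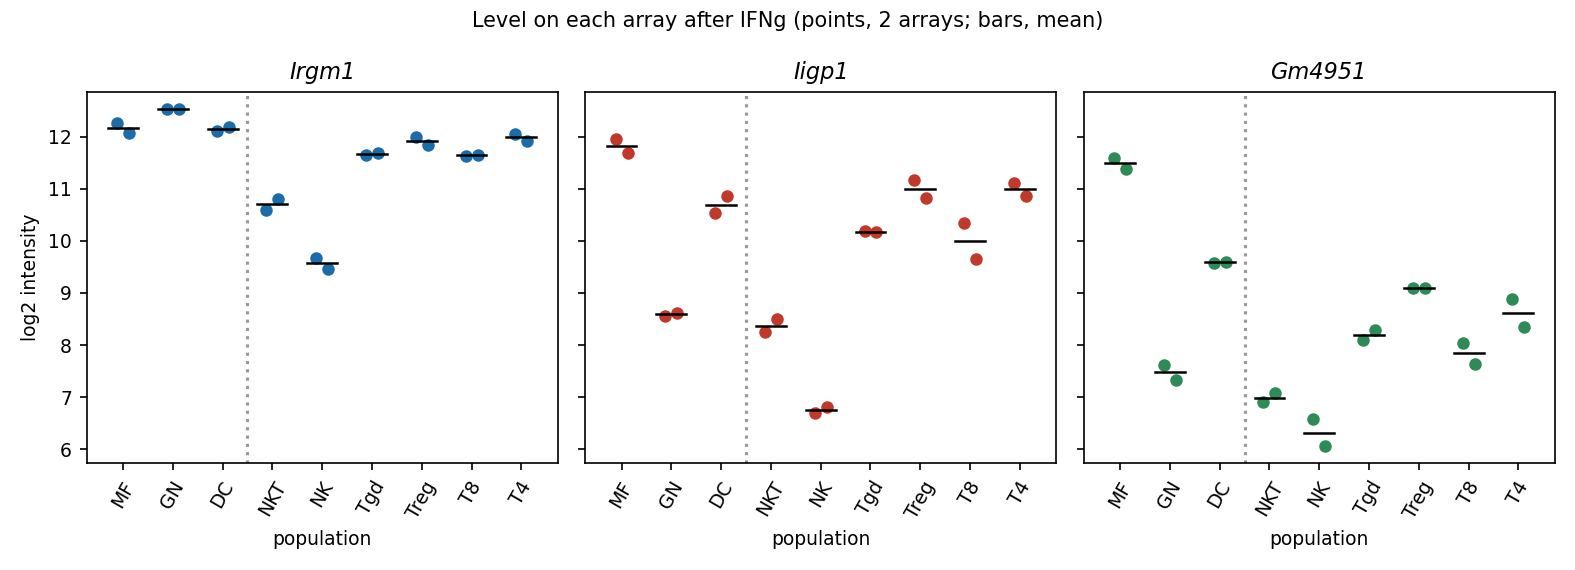
Log2 intensity of Irgm1, Iigp1 and Gm4951 (panels) on each array, by population. Points are arrays, bars are means of 2 arrays, and the dotted line separates the 3 myeloid from the 6 lymphoid populations. GN lies at the top for Irgm1 at 12.53 and low for Iigp1 at 8.59 and Gm4951 at 7.48, while NK lies lowest in all 3 panels. Heights of different genes cannot be compared, since each has its own probes.

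Granulocytes separated Irgm1 from Iigp1 and Gm4951. In GN, Irgm1 stood 1.06 ± 0.08 above the mean of the other 8 populations (log2 difference ± SE, adjusted p = 9.96e-10), whereas Iigp1 stood at -1.39 ± 0.14 (adjusted p = 1.23e-07) and Gm4951 at -1.04 ± 0.14 (adjusted p = 5.56e-06). All 3 passed, 1 higher and 2 lower. In that comparison 7.03% of all genes passed as higher and 11.7% as lower, and the median difference of all genes was 0.13. With quantile normalization the directions held, but Irgm1 at 0.71 and Gm4951 at -0.88 were under 2-fold, and without GN replicate 2 Gm4951 stood at -0.90. Against DC from the same organ, GN differed in Irgm1 by 0.39 ± 0.10 (adjusted p = 0.00569), in Iigp1 by -2.10 ± 0.19 (adjusted p = 6.8e-08) and in Gm4951 by -2.11 ± 0.19 (adjusted p = 7.82e-08). Without DC replicate 2 these differences were 0.43, -1.94 and -2.09, and all passed on the adjusted p alone, the rule for pairs. These pairwise p-values are adjusted over all genes and all 36 pairs of populations together.

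Peritoneal macrophages had the highest Iigp1 and Gm4951. Gm4951 stood 3.47 ± 0.14 above the other 8 populations, 11.1-fold (adjusted p = 8.46e-13), and Iigp1 2.25 ± 0.14 above, 4.76-fold (adjusted p = 2.88e-10). For Irgm1 the difference of 0.65 ± 0.08 was under 2-fold (adjusted p = 1.16e-06). Thus 2 of 3 members passed as higher, as did 7.56% of all genes. MF exceeded DC by 1.90 ± 0.19 for Gm4951 (adjusted p = 2.97e-07) and by 1.13 ± 0.19 for Iigp1 (adjusted p = 0.000115), while for Irgm1 the difference was 0.02 ± 0.10 (adjusted p = 0.898). Without DC replicate 2 the differences were 1.92 for Gm4951, 1.29 for Iigp1 and 0.07 for Irgm1, with the same calls.

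In dendritic cells Gm4951 was higher than in the other 8 populations by 1.33 ± 0.14 (adjusted p = 6.65e-07), the 1 of 3 members to pass, as did 5.31% of all genes. Iigp1 at 0.98 ± 0.14 (adjusted p = 2.36e-05) and Irgm1 at 0.62 ± 0.08 (adjusted p = 3.11e-06) were under 2-fold. Without DC replicate 2, the array with more granulocyte marker signal, the differences were 1.31 for Gm4951, 0.82 for Iigp1 and 0.58 for Irgm1. Without DC replicate 1, Iigp1 reached 1.13 and passed, as it did at 1.02 without T8 replicate 2. The part of granulocyte RNA in these values was not tested. Iigp1 and Gm4951 were dimmer in GN than on either DC array, whereas Irgm1 was brighter. It stood at 12.53 on both GN arrays, against 12.10 and 12.18 in DC.

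NK cells were lowest for every member. Against the other 8 populations Iigp1 stood at -3.44 ± 0.14, 10.9-fold lower (adjusted p = 3.61e-12), Gm4951 at -2.34 ± 0.14 (adjusted p = 7.26e-10) and Irgm1 at -2.28 ± 0.08 (adjusted p = 2.65e-13). All 3 passed, as did 2.62% of all genes in that direction. NKT cells, which share the NK1.1 gate but carry a T cell receptor, came next to last for all 3. They stood at -1.63 ± 0.14 for Iigp1 (adjusted p = 1.01e-07) and -1.59 ± 0.14 for Gm4951 (adjusted p = 1.67e-07), which passed along with 2.28% of all genes. Irgm1 in NKT fell just short of 2-fold at -1.0 ± 0.08 (adjusted p = 1.75e-08). It passed under 7 of the 25 alternatives tried, with values between -1.10 and -0.89 over all of them. NKT exceeded NK by 1.61 ± 0.19 for Iigp1 (adjusted p = 1.99e-06), by 1.14 ± 0.10 for Irgm1 (adjusted p = 5.52e-08) and by 0.67 ± 0.19 for Gm4951 (adjusted p = 0.0118).

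**Figure D2:**
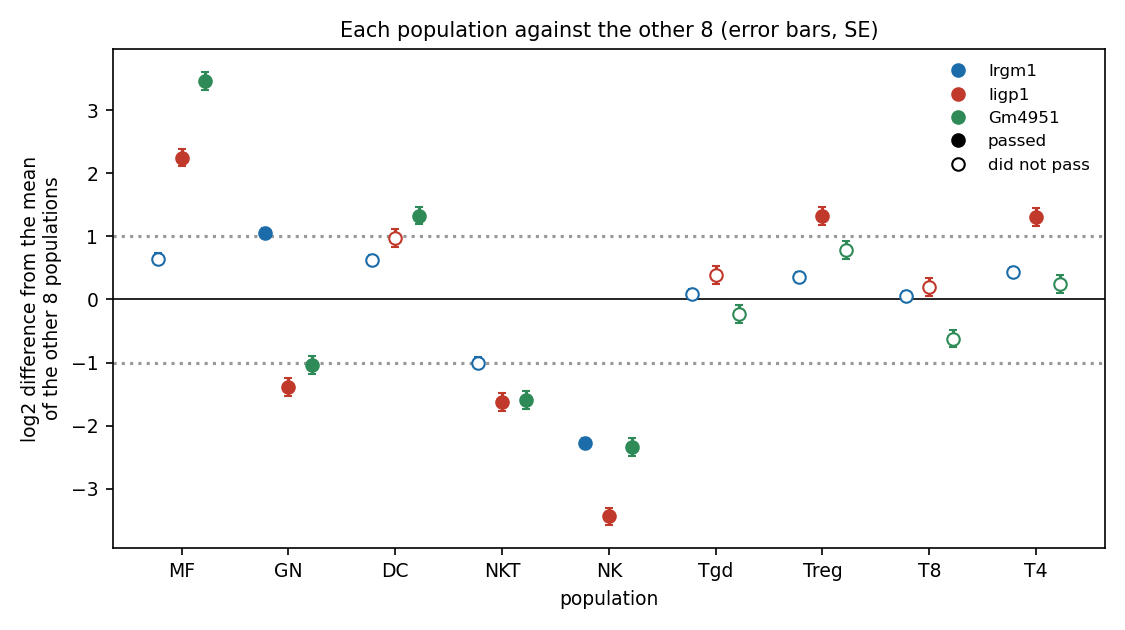
Log2 difference of each population from the mean of the other 8 for Irgm1 (blue), Iigp1 (red) and Gm4951 (green). Error bars are standard errors of limma, dotted lines mark 2-fold, and filled points passed at an adjusted p under 0.05 and 2-fold. GN is positive for Irgm1 at 1.06 and negative for Iigp1 at -1.39 and Gm4951 at -1.04, while NK is below -2 for all 3.

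Among the T cells that lack NK1.1 in their gate, the members differed less. Treg and T4 stood close together for Irgm1, with Treg minus T4 at -0.07 ± 0.10 (adjusted p = 0.648), and for Iigp1 at 0.01 ± 0.19 (adjusted p = 0.976). For Gm4951 Treg minus T4 was 0.47 ± 0.19 and did not pass (adjusted p = 0.0772). Their gates as labelled overlap. Iigp1 was higher than in the other 8 populations in both, by 1.32 ± 0.14 in Treg (adjusted p = 1.45e-06) and 1.31 ± 0.14 in T4 (adjusted p = 1.7e-06). It was the 1 of 3 members to pass there, as did 1.5% of all genes as higher in Treg and 1.33% as higher in T4. T8 minus T4 was -0.98 ± 0.19 for Iigp1 (adjusted p = 0.000476), -0.78 ± 0.19 for Gm4951 (adjusted p = 0.00411) and -0.34 ± 0.10 for Irgm1 (adjusted p = 0.0144). Tgd and T8 did not differ beyond their spread for any member, with Tgd minus T8 at 0.03 ± 0.10 for Irgm1 (adjusted p = 0.879), 0.17 ± 0.19 for Iigp1 (adjusted p = 0.572) and 0.35 ± 0.19 for Gm4951 (adjusted p = 0.201).

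Over the 6 lymphoid populations all 3 genes passed, with ranges of 2.42 for Irgm1 (adjusted p = 1.12e-11), 4.23 for Iigp1 (adjusted p = 2.4e-11) and 2.77 for Gm4951 (adjusted p = 1.87e-08). Of all genes 9.95% passed, with a median range of 0.33. Myeloid minus lymphoid differences were 1.67 ± 0.09 for Gm4951 (adjusted p = 4.44e-11) and 1.03 ± 0.05 for Irgm1 (adjusted p = 4.67e-12), which passed, as 6.39% of all genes did as higher. For Iigp1 the difference was 0.82 ± 0.09, under 2-fold (adjusted p = 5.95e-07). With quantile normalization Irgm1 stood at 0.79 and no longer passed.

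Arranged from high to low, Irgm1 ran GN, MF, DC, T4, Treg, Tgd, T8, NKT, NK. Of its 8 neighbouring steps, GN to MF (0.37 ± 0.10, adjusted p = 0.0089), T8 to NKT (0.94 ± 0.10, adjusted p = 6.76e-07) and NKT to NK passed, and the other 5 did not. Iigp1 ran MF, Treg, T4, DC, Tgd, T8, GN, NKT, NK. The steps MF to Treg (0.82 ± 0.19, adjusted p = 0.00231), DC to Tgd (0.52 ± 0.19, adjusted p = 0.0458), T8 to GN (1.41 ± 0.19, adjusted p = 9.7e-06) and NKT to NK passed. Without DC replicate 2 the step DC to Tgd was 0.36 ± 0.22 and did not pass (adjusted p = 0.278), nor did DC minus T8 at 0.53 ± 0.22 (adjusted p = 0.0958), which had passed at 0.69 with both arrays. Gm4951 ran MF, DC, Treg, T4, Tgd, T8, GN, NKT, NK, and between the first step, MF to DC, and the last, NKT to NK, no neighbouring step passed. Over all 36 pairs of populations 27 passed for Irgm1, 31 for Iigp1 and 30 for Gm4951, against 29.6% of all tests of a gene in a pair. At least 2-fold were 13 of those 27, 23 of those 31 and 24 of those 30. The share of all gene and pair tests that also reached 2-fold was not counted, so these counts have no background.

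The profiles of the members were then set against each other as differences within an array. The difference Iigp1 minus Irgm1 in GN lay 2.17 below its mean over the 9 populations (SD 0.04), with both GN arrays below all 16 others. Against the other arrays the GN value of this difference was -2.45. An exact two-sided permutation test over arrays gave p = 0.00654, the smallest that 2 against 16 arrays allow, and 0.0882 after adjustment over 27 such tests, chosen after the values were seen. The difference Gm4951 minus Irgm1 lay 2.51 above its mean in MF (SD 0.02), again beyond all other arrays, with the same exact p and adjusted p, and 1.86 below its mean in GN (SD 0.20, exact p = 0.0131, adjusted p = 0.118). The smallest adjusted p that these 27 tests can reach is 0.0588, so none could pass and the adjusted values decide nothing. These tests also shuffle single arrays as if independent, although arrays come 2 to a population. The unadjusted exact p-values therefore decide nothing about populations either. Between the 3 myeloid and the 6 lymphoid population means, the differences of members did not separate in exact permutation tests over 84 splits. In these exact tests the myeloid minus lymphoid values were -0.22 for Iigp1 minus Irgm1 (p = 0.833, adjusted p = 0.833), 0.64 for Gm4951 minus Irgm1 (p = 0.524, adjusted p = 0.786) and 0.85 for Gm4951 minus Iigp1 (p = 0.0952, adjusted p = 0.286).

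**Figure D3:**
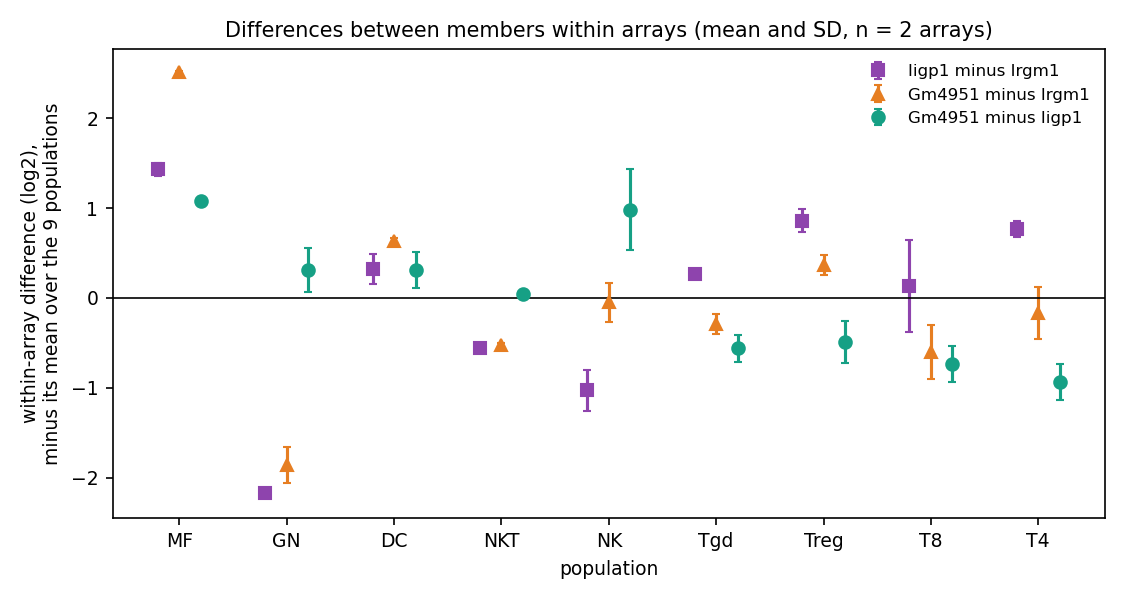
Within-array log2 difference between pairs of members, minus its mean over the 9 populations, by population. Points are means and error bars SDs of 2 arrays. Both differences from Irgm1 are lowest in GN, at -2.17 for Iigp1 and -1.86 for Gm4951, and highest in MF, at 1.43 and 2.51.

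In the RefSeq gene table Irgm1 lies on chromosome 11, whereas Iigp1 and Gm4951 lie near each other on chromosome 18. Between these 2 stand 2 protein-coding genes, Gm4841 and F830016B08Rik, listed with the synonyms Ifgga3 and Ifgga4. Other family members could be read for 5 genes from probe sets with 1 symbol, and 6 further probe sets with several symbols were not named. Gm12250 (Irgb10), a chromosome 11 gene whose protein acts on bacteria and their vacuoles, ran from 9.15 ± 0.50 in NK to 12.43 ± 0.03 in GN. Its Pearson r with Irgm1 over the 9 population means was 0.99, against 0.73 with Iigp1 and 0.65 with Gm4951. Gm4841, one of the genes between Gm4951 and Iigp1, stood at 10.41 and 10.21 in MF and between 6.06 and 7.75 on all other arrays. Its r was 0.90 with Gm4951, 0.67 with Iigp1 and 0.42 with Irgm1. By ranks (Spearman's rho) it was 0.95 with Gm4951, 0.95 with Iigp1 and 0.68 with Irgm1. Gm12185 (Irgb2b1), also on chromosome 11, peaked in DC at 10.34 ± 0.05, with its minimum of 6.69 ± 0.08 in NK. Its r was 0.90 with Irgm1, 0.70 with Iigp1 and 0.57 with Gm4951, and its rho was 0.48, 0.23 and 0.40. Iigp1 and Gm4951 correlated with each other at 0.89, while Irgm1 correlated with Iigp1 at 0.75 and with Gm4951 at 0.65. These correlations describe 9 populations measured on shared arrays and carry no test, and a link to chromosome position was not tested.

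Irgc1, known as a testis gene of the family, and Irgq, a divergent relative, did not pass. Their ranges were 0.81 (adjusted p = 0.000917, under 2-fold) and 0.34 (adjusted p = 0.356), at levels between 6.38 and 7.39 on all arrays. Of the 8 measured family genes, members included, 6 passed in the F test of all 9 populations and 6 in that of the lymphoid populations, and 5 were higher in myeloid cells with none lower. Of all genes 39.0% and 9.95% passed these F tests, and 6.39% were higher and 4.41% lower in myeloid cells. The family's median range was 3.47 over 9 and 2.53 over 6 populations, against 0.71 and 0.33 for all genes. With quantile normalization 3 of 8 were higher in myeloid cells.

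**Figure D4:**
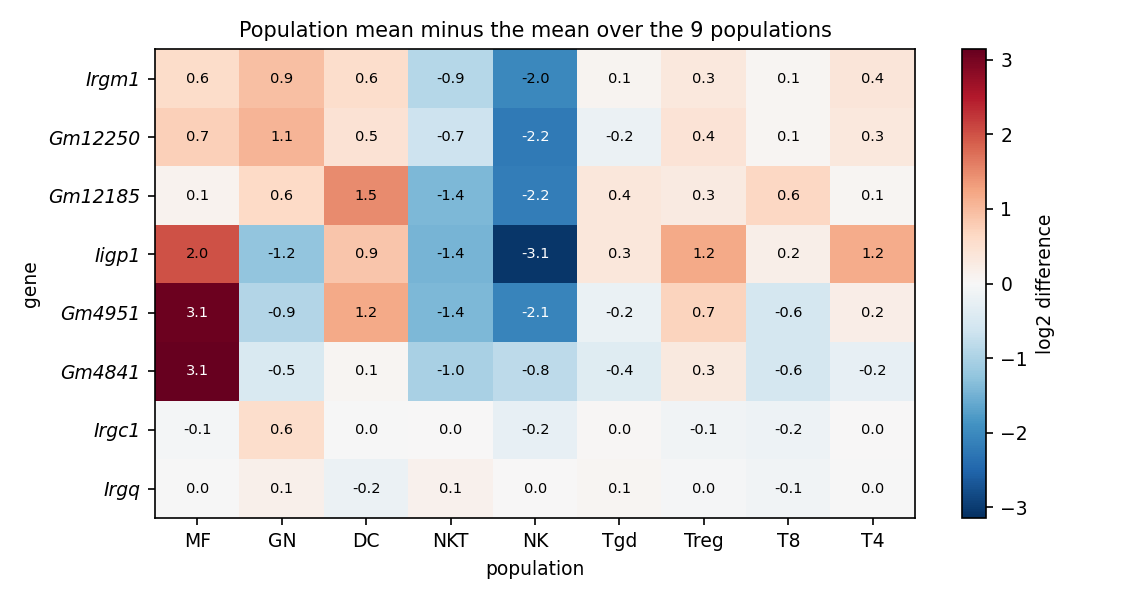
Population mean of each measured family gene minus that gene's mean over the 9 populations, in log2 units, as a heat map with values printed. Irgm1 and Gm12250 share high GN and low NK values, whereas Iigp1, Gm4951 and Gm4841 are highest in MF and below their mean in GN, and Irgc1 and Irgq vary little.

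The genes most like each member were picked by Pearson's r over the 9 population means among named genes that passed the F test. For Irgm1 these were Gbp7, a guanylate-binding protein, at 0.971, Parp9 at 0.971, Samhd1, a restriction factor that degrades deoxynucleotides, at 0.948, Sgms1, a sphingomyelin synthase, at 0.944 and Cd274 (PD-L1) at 0.943. All 5 were highest in GN and lowest in NK. For Iigp1 they were the lipid transporter gene Abca3 at 0.953, the lysosomal lipase gene Lipa at 0.950, Pml, of the nuclear bodies, at 0.946, Supt3 at 0.929 and the pyrophosphatase gene Ppa1 at 0.922. For Gm4951 they were Nfix, a transcription factor gene, at 0.979, Firre, a long noncoding RNA, at 0.957, Tspan31 at 0.938, the kinase gene Hipk2 at 0.926 and the DNA repair gene Rad51b at 0.925, all highest in MF. No gene stood in more than 1 of these lists. Picking the highest r favours shared peaks and lows, and short lists from 7375 or 7376 candidates seldom overlap. Neither is therefore evidence about the members.

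Upstream of these genes, the second receptor chain Ifngr2 and the induced transcription factor Irf1 had profiles like that of Irgm1. Ifngr2 was 10.57 ± 0.02 in MF, 11.45 ± 0.06 in GN and 11.40 ± 0.03 in DC. In lymphoid cells it was 7.30 ± 0.09 in NKT, 7.16 ± 0.25 in NK, 9.60 ± 0.04 in Tgd, 10.52 ± 0.08 in Treg, 9.94 ± 0.09 in T8 and 10.61 ± 0.12 in T4 (SD, n = 2 arrays each). NK and NKT stood apart from the other populations, as they did for Irgm1. Over the 9 population means Irgm1 had an r of 0.94 with Ifngr2 and 0.93 with Irf1, and over the 7 populations without NK and NKT 0.89 and 0.97. Iigp1 had 0.70 with Ifngr2 and 0.58 with Irf1 over 9 populations, and -0.21 and -0.38 without NK and NKT. For Gm4951 the values were 0.63 and 0.58 over 9 populations, and 0.12 and 0.07 without NK and NKT. The first chain, Ifngr1, ran the other way, highest in NK, with an r of -0.76 with Irgm1. Irf8 also had another profile than Irgm1, at 12.15 ± 0.08 in NK and 9.24 ± 0.14 in GN. Ifngr2 and Irf1 are thus single genes of a longer list, and Irf1 was picked after its values were seen. Their correlations with the members carry no test, and the share of all genes with an r as high was not counted. Among 18 genes of the receptor and its signalling, 15 passed over the 9 populations and 10 among lymphocytes, with a median range of 1.74 over the 9, where 39.0% and 9.95% of all genes passed.

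**Figure D5:**
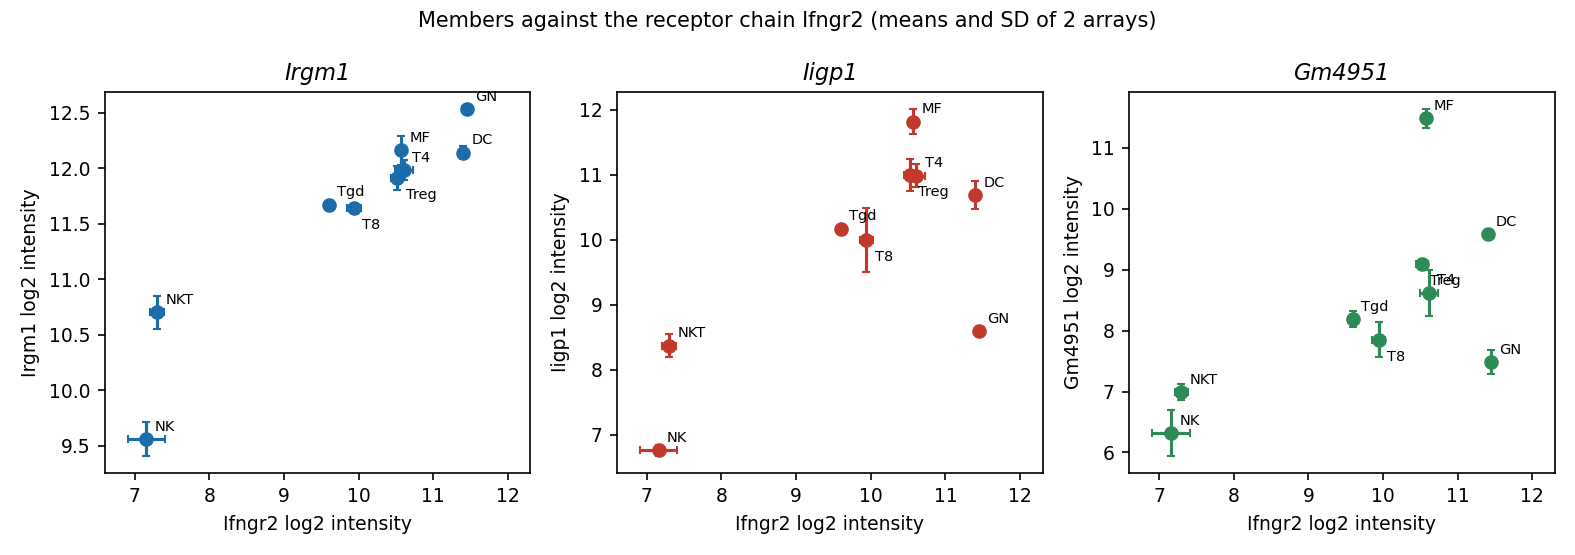
Mean log2 intensity of Irgm1, Iigp1 and Gm4951 (panels) against that of the receptor chain gene Ifngr2 in the 9 populations, with SDs of 2 arrays as error bars. NK and NKT lie at the low end of both axes, and GN, with Ifngr2 at 11.45, lies high for Irgm1 and low for Iigp1 and Gm4951.

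The vacuole pathway needs more than the GTPases: in mouse cells the proteins that attach Atg8-family tags, such as Atg3, Atg5, Atg7 and Atg16l1, and the GABARAP tags themselves, help to load effectors onto the vacuole. Of 16 measured genes of this conjugation system and its ubiquitin adaptors 7 passed in the F test of all populations and 2 in that of the lymphoid populations, shares near the 39.0% and 9.95% of all genes. Their median range was 0.92, against 0.71 for all genes. Gabarapl1 ranged over 2.47, from 6.73 ± 0.25 in T8 to 9.20 ± 0.28 in MF (adjusted p = 2.91e-08). Atg7, the activating enzyme, ranged over 1.98, from 8.76 ± 0.07 in T4 to 10.75 ± 0.01 in GN (adjusted p = 4.16e-10), and Map1lc3b over 1.74, also highest in GN (adjusted p = 2.81e-08). Higher in myeloid than in lymphoid cells were 2 of the 16, Atg7 by 1.19 ± 0.06 and Gabarapl1 by 1.05 ± 0.09, and none was lower. Of all genes 6.39% were higher and 4.41% lower. Without GN replicate 1 or MF replicate 3 the count of list genes higher in myeloid cells was 1. Without NK replicate 3 the count over the lymphoid populations was 1. Atg5 had a range of 0.76 (adjusted p = 0.000452) and Traf6, a ubiquitin ligase, one of 0.18 (adjusted p = 0.918), both under 2-fold.

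Of the other interferon-inducible genes listed, all 8 measured guanylate-binding proteins passed in both F tests, with a median range of 3.20. Of these, 3 were higher and 2 lower in myeloid cells, where 6.39% of all genes were higher and 4.41% lower. All 14 measured genes of the type I interferon list passed in the F test of all populations and 12 in that of the lymphoid populations, with a median range of 4.10. Both lists stand against the 39.0% and 9.95% of all genes that passed these tests, and were chosen with earlier results known. Gbp2b, a guanylate-binding protein, had an r of 0.92 with Gm4951, 0.73 with Iigp1 and 0.52 with Irgm1 over the 9 population means. By ranks (Spearman's rho) the values were 0.92 with Gm4951, 0.92 with Iigp1 and 0.77 with Irgm1, so Gm4951 and Iigp1 did not differ there.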

How the data were processed

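The authors deposited 1 intensity per probe set and array on a linear scale, and the submitters' processing notes name Affymetrix Power Tools and RMA. Their versions, and whether all 18 arrays were normalized together, are not given in the sources used here. RMA compresses differences of dim genes. Gene symbols came from the platform annotation at GEO and were brought up to date through Entrez IDs in RefSeq GRCm38.p6: 21425 had 1 symbol, 1399 several and 2098 no listed gene. The brightest probe set stood for a gene, which left 19752 genes. On log2 values, limma 3.58.1 in R 4.3.3 fitted 1 mean per population on all 18 arrays (eBayes with a trend, 9 residual and 7.69 prior degrees of freedom, no covariate). The script was tested on simulated data. Every adjusted p not called a permutation p is limma's with Benjamini-Hochberg adjustment over all genes, and for the 36 pairs over all genes and pairs. Passing required an adjusted p below 0.05 together with a 2-fold difference or range, and for a pair the p alone. The number of arrays limits the precision. Named genes were the members, all measured family genes, the 5 genes most like each member without clone or small RNA names, and in each pathway list genes among the 3 with the largest range. Irf1, Ifngr1, Atg5 and Traf6 were named outside this rule, after their values were seen. The 27 tests of member differences by population and the correlations without NK and NKT were also added after seeing the data. Members and lists were chosen with earlier results of these data known. Alternatives were quantile normalization, median centring, no trend, no dim genes, all probe sets, array weights, the replicate number as a block and leaving out each array.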

Additional observations from a re-analysis of the deposited data

How the results depend on the processing

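Of 1629 values recomputed under an alternative, 1609 kept their direction and their side of the threshold, or for counts stayed within 1.5 times. Quantile normalization put Irgm1 myeloid minus lymphoid at 0.79, under 2-fold, counted 3 of 8 family genes as higher in myeloid cells in place of 5, and counted 1 signalling gene as lower in place of 0. The cause was not tested. Leaving out 1 array at a time, the conjugation list had between 1 and 2 genes higher in myeloid cells (1 without GN replicate 1 or MF replicate 3) and between 1 and 2 passing over the lymphoid populations (1 without NK replicate 3). Against the other 8 populations, Gm4951 in T4 lay between -0.02 (without T4 replicate 2) and 0.52, and Iigp1 in T8 between -0.14 (without T8 replicate 2) and 0.55, and neither had passed. The ranges over the 9 populations lay between 2.86 and 3.08 for Irgm1, 4.92 and 5.19 for Iigp1, and 4.90 and 5.42 for Gm4951 when 1 array was left out. Counts of genes passed over the 9 populations stayed within 1.5 times of 7695 under every alternative run, up to 9816 with all 24922 probe sets tested. The labels tie replicate numbers to no shared animal or day, and the arrays were not treated as paired: deviations of same-numbered arrays correlated between -0.20 and 0.47 (median 0.08), those of different numbers between -0.47 and 0.28 (median -0.05). Of 18 arrays 14 were closest to their own number, a count without a chance level. With 2 arrays per population the deviations from a population mean mirror each other, so these are not 18 independent counts. The count is at most a hint of pairing from the data, not the design. With the replicate number as a block 7744 genes passed over the 9 populations, against 7695 without it, and no member call in the F tests, the myeloid contrast or a population against the other 8 changed. Pairs passed went to 30 with the block, against 27, for Irgm1 and to 33, against 30, for Gm4951, and stayed at 31 for Iigp1. No member had another probe set to try. Depth has no counterpart here, and the NK and NKT values of Gm4951, below the median of all genes, limit how far its folds can be read.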
